A study of Mus musculus with 15 samples.

Results

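The genes described here are 7 small leucine-rich proteoglycans (Dcn, Bgn, Lum, Fmod, Ogn, Aspn and Prelp) and 3 genes of the periosteal and tendon matrix (Postn, Tnmd and Scx). Members were taken as the array probes, control spots left out, whose accession maps to 1 of these 10 symbols. 9 of the 10 genes were matched, each by 1 probe, out of 55681 probes and 21154 genes with a symbol; no probe was matched to Prelp, which is not analysed here. Femoral RNA came from 15 male C57BL/6J mice, labelled as 9 weeks old (the age at surgery), in 4 groups: 4 ground mice left unoperated (G-Sham), 4 unoperated mice flown on the International Space Station (FLT-Sham), 4 ground mice with segmental bone defect surgery (G-Surgery) and 3 flown mice with that surgery (FLT-Surgery). In the surgery groups a piece of the femoral shaft had been removed before launch and replaced by a polymer scaffold wrapped in a saline-soaked collagen sponge. Flown mice spent about a month in orbit, and the ground mice were kept in the same hardware on a schedule that ran a few days behind. Tissue was taken from carcasses that had been stored frozen. The labels call the tissue callus in all groups, although the sham mice had no defect. Each array carried 1 mouse's RNA in Cy5 and a commercial reference RNA from 11 mouse cell lines in Cy3, so a log2 ratio is the mouse's level relative to that reference. A mouse is named below by its group and its label number.

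Small leucine-rich proteoglycans are secreted proteins that bind collagen fibrils, set their diameter and spacing, and hold growth factors of the TGF-beta family in the matrix. Decorin (Dcn), biglycan (Bgn) and asporin (Aspn) form class I, lumican (Lum), fibromodulin (Fmod) and Prelp class II, and osteoglycin (Ogn) class III. Periostin (Postn) is a matricellular protein of periosteum and ligament that is strongly induced in fracture callus, tenomodulin (Tnmd) is a membrane protein of mature tenocytes, and scleraxis (Scx) is the E-box binding transcription factor of tendon progenitors. In the RefSeq gene order, Dcn and Lum are adjacent protein-coding genes, as are Prelp and Fmod, and Aspn and Ogn are separated by 1 gene, Omd.

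Promoter sequence is shown for Ogn and Postn, whose log ratios varied together across mice, and for Bgn, whose log ratio varied less. RefSeq promoters (build GRCm38.p6) were on hand for 7 of the 10 genes. The 250 bases before the start are printed 5′ to 3′ on the coding strand, with every match to TATAAA or to the E-box CANNTG, on either strand, in capitals. Postn has a pair of listed starts, and the downstream one is shown because it holds a TATAAA match.
Ogn, chr13:49607765-49608014, plus strand: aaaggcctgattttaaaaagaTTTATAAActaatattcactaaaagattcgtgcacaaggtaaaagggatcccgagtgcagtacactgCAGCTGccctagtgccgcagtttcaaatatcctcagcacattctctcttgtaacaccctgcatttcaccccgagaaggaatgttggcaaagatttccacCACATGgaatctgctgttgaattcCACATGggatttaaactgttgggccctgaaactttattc
Postn, chr3:54360857-54361106, plus strand: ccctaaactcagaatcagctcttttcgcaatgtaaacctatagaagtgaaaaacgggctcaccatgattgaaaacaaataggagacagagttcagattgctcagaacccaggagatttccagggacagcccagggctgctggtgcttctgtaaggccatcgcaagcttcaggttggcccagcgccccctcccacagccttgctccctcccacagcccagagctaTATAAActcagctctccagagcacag
Bgn, chrX:73483351-73483600, plus strand: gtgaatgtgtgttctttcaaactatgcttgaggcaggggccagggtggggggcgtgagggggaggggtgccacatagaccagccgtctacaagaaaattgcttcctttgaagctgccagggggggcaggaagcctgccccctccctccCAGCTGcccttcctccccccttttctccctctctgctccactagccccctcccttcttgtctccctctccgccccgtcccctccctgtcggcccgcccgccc
The Postn stretch holds TATAAA with its first base at -26 and no E-box. The Ogn stretch holds 3 E-boxes, at -162, -63 and -39, and an overlapping pair of TATAAA matches, 1 on each strand, at -229 and -227. The Bgn stretch holds 1 E-box, at -102, no TATAAA, and a GC content of 64.4%, above that of Postn (52%) and Ogn (42%). Of 32851 RefSeq mouse promoter stretches of the same length, 12.4% hold TATAAA and 66.2% hold CANNTG, so an E-box match sets no promoter apart. Fmod holds 1 E-box and Aspn 1, and Tnmd and Prelp hold none in this window.

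The 15 arrays differed in how much Cy5 signal they carried. Between 22.4% and 38.5% of probes were well above background in Cy5, and the factor by which the Cy5 signal had been scaled up ran from 19.8 to 59.5. FLT-Surgery 3 (59.5) and FLT-Surgery 5 (50.9) had the highest factors, while FLT-Surgery 1 (27.5) lay in the range of the other groups. FLT-Surgery 3 and 5 were on 1 slide and FLT-Surgery 1 on another, so slide and mouse cannot be told apart within that group. Skeletal muscle markers were present in all groups: 12 of 12 were above background on 3 or more arrays, and their mean log2 ratio on an array ran from 6.75 to 9.10 in G-Sham, 7.08 to 9.03 in FLT-Sham, 6.26 to 8.51 in G-Surgery and 4.31 to 7.56 in FLT-Surgery. Of 10 osteoblast and osteocyte markers, Sp7, Dmp1, Phex and Sost were above background on no array. In such bulk RNA, fewer cells of a type and less RNA per cell cannot be told apart.

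Dcn and Bgn were above background in Cy5 on all 15 arrays, Lum, Ogn, Postn and Scx on 12, Fmod on 11, Aspn on 4 and Tnmd on 1. No spot of a member was saturated in Cy5. The 3 arrays on which Lum, Ogn, Postn and Scx were not well above background were the same for all 4 genes: G-Sham 1, FLT-Surgery 3 and FLT-Surgery 5. On these the log2 ratio is a measured value of a signal that cannot be separated from background, so the size of a difference that rests on them is uncertain.

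**Figure D1:**
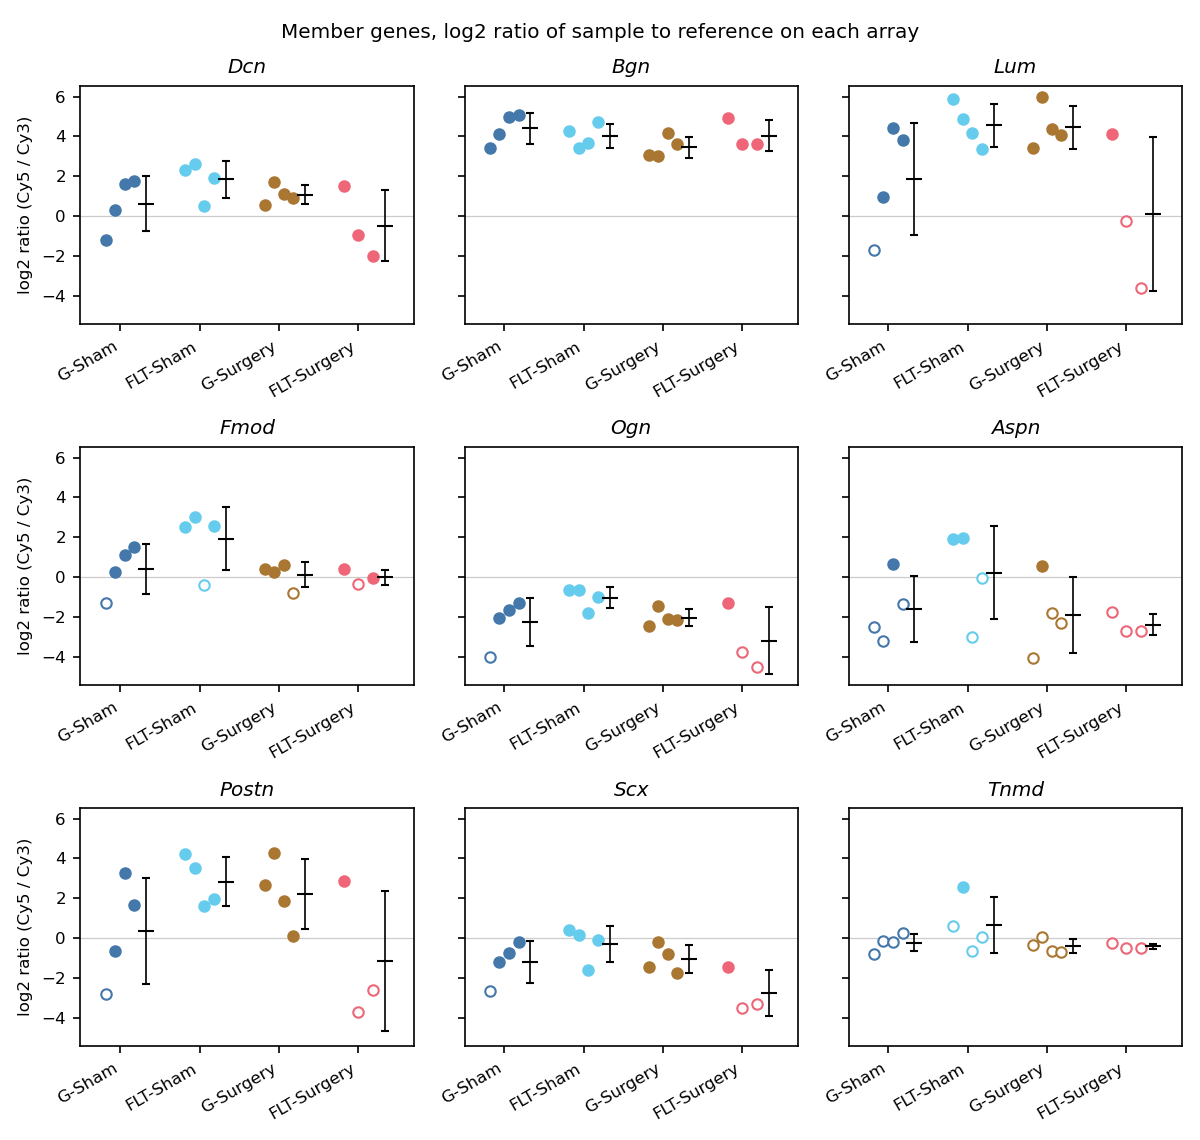
Log2 ratio of sample to reference (vertical axis) for the 9 matched genes, 1 point per mouse in 4 groups (horizontal axis). Filled points were well above background in Cy5, open points were not, and bars beside the points give the mean ± SD. Bgn lies between 3.02 and 5.07 in all mice, while Lum and Postn spread over several log2 units within G-Sham and FLT-Surgery.

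Among the class I proteoglycans, Dcn varied widely between mice. Its log2 ratio was -1.21, 0.30, 1.59 and 1.77 in G-Sham 1, 3, 4 and 5, and 2.32, 2.62, 0.51 and 1.93 in FLT-Sham 4, 6, 8 and 9. After surgery it was 0.54, 1.68, 1.12 and 0.92 in G-Surgery 1, 3, 4 and 5, and 1.50, -0.95 and -1.99 in FLT-Surgery 1, 3 and 5. FLT-Surgery thus held both a mouse above 3 of the 4 G-Surgery mice and 2 mice below all of them. The processed Cy5 signal behind these values ran from 3562 on FLT-Surgery 5 to 118631 on FLT-Sham 6, so the low values of Dcn, unlike those of Lum or Postn, were measured well above background.

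Bgn, the other abundant class I member, was high in every mouse. Its log2 ratio was 3.41, 4.13, 4.98 and 5.07 in the G-Sham mice, 4.28, 3.43, 3.64 and 4.72 in the FLT-Sham mice, 3.04, 3.02, 4.16 and 3.60 in the G-Surgery mice and 4.92, 3.60 and 3.59 in the FLT-Surgery mice. FLT-Surgery 3 and 5, the lowest of their group for Dcn, lay within the G-Surgery range for Bgn, though below FLT-Surgery 1. Aspn, which binds collagen and TGF-beta, was above background on only 1 G-Sham, 2 FLT-Sham and 1 G-Surgery array and on no FLT-Surgery array. Its processed Cy5 signal was 714, 724, 41.9 and 235 in FLT-Sham 4, 6, 8 and 9 and 46.4 to 68.5 in FLT-Surgery, and no fold is given, since 2 mice carry the FLT-Sham level. It was tested only in the sham comparison and the interaction, where enough arrays measured it.

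Of the class II members, Lum had the widest range of all. Its log2 ratio was -1.73, 0.96, 4.41 and 3.82 in G-Sham and 5.86, 4.85, 4.15 and 3.35 in FLT-Sham, in the order of mice given above. It was 3.43, 5.99, 4.37 and 4.06 in G-Surgery, and 4.10, -0.23 and -3.62 in FLT-Surgery. All 4 FLT-Sham and all 4 G-Surgery mice were above 3, and 2 mice each of G-Sham and FLT-Surgery were below 1. Fmod, which binds collagen next to Lum and acts in tendon, had a mean of 0.39 ± 1.26 (SD, n = 4) in G-Sham, 1.92 ± 1.57 (n = 4) in FLT-Sham, 0.12 ± 0.62 (n = 4) in G-Surgery and -0.01 ± 0.38 (n = 3) in FLT-Surgery. In FLT-Sham 3 mice lay between 2.52 and 3.01 and FLT-Sham 8 at -0.42, not well above background.

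Ogn, a class III proteoglycan of bone and muscle connective tissue, was below the reference in all 15 mice, from -4.54 in FLT-Surgery 5 to -0.66 in FLT-Sham 4. Its group means were -2.26 ± 1.21 in G-Sham, -1.04 ± 0.53 in FLT-Sham, -2.04 ± 0.43 in G-Surgery and -3.19 ± 1.69 in FLT-Surgery (SD, n as above). The 2 lowest values of FLT-Surgery, -3.75 and -4.54, lay below all G-Surgery values, and FLT-Surgery 1 at -1.29 lay above all of them.

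Postn had its group means in the same order as Ogn, highest in FLT-Sham and lowest in FLT-Surgery. Its log2 ratio was -2.82, -0.64, 3.27 and 1.64 in G-Sham, 4.21, 3.54, 1.62 and 1.95 in FLT-Sham, 2.66, 4.28, 1.84 and 0.08 in G-Surgery, and 2.86, -3.70 and -2.60 in FLT-Surgery. Every FLT-Sham mouse was above 1.6, while G-Sham ran from -2.82 to 3.27. Scx was -2.65, -1.20, -0.75 and -0.18 in G-Sham, 0.42, 0.13, -1.61 and -0.10 in FLT-Sham, -1.45, -0.19, -0.80 and -1.77 in G-Surgery, and -1.45, -3.51 and -3.34 in FLT-Surgery. Tnmd, printed on 10 spots, was above background in Cy5 only on FLT-Sham 6, with a processed signal of 113 against 18 to 45.9 on the other 14 arrays, and in Cy3 on none, so it was not tested and no fold is given.

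For none of the 9 members did the log2 ratios of the groups separate without overlap in any of the 4 comparisons. Over all probes tested, 3.64% were higher and 0.958% lower without overlap in FLT-Sham than in G-Sham, and 6.03% higher and 7.54% lower in FLT-Surgery than in G-Surgery. In G-Surgery against G-Sham the shares were 5.31% and 1.56%, and in FLT-Surgery against FLT-Sham 4.06% and 10.6%.

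The comparison of FLT-Sham with G-Sham asks what spaceflight does to the uninjured femur. Of the 8 members tested, 7 had a higher mean in FLT-Sham and Bgn a lower one. The cut-off for a call, after the methods of the study, was a change of 2-fold or more with a limma p not above 0.01 before adjustment. No member passed it, where 2% of the 19739 probes tested did. At a p up to 0.05 before adjustment the count was also 0 of 8, against 9.57% of all probes, and no probe had an adjusted p under 0.05. The largest mean differences on the log2 scale were those of Lum (2.69, SE 1.28, limma adjusted p = 0.52) and Postn (2.47, SE 1.25, adjusted p = 0.522). Dcn differed by 1.23 (SE 0.74), Ogn by 1.23 (SE 0.61), Fmod by 1.53 (SE 0.88), Scx by 0.91 (SE 0.63) and Bgn by -0.38 (SE 0.48). For Aspn no size is given, since it was above background on only 1 G-Sham and 2 FLT-Sham arrays. The median over the 8 members was 1.38 and that over all probes tested 0.24. Within the slide that held 3 FLT-Sham and 2 G-Sham mice, Lum differed by 3.08 and Postn by 2.96, and between the single mice of the other shared slide by 4.90 and 4.85. G-Sham 4, alone on its slide and the highest G-Sham mouse for Lum (4.41) and Postn (3.27), enters neither contrast. The first of these slides held G-Sham 1, where both genes were not well above background. Without G-Sham 1 the differences were 1.49 for Lum, 1.40 for Postn, 0.62 for Dcn, 0.64 for Ogn and 0.42 for Scx, and after normexp and loess those of Lum, Postn and Ogn were 1.39, 1.09 and 0.32. Without FLT-Sham 8, Fmod passed the cut-off with a difference of 2.31 (SE 0.66, limma adjusted p = 0.09), 1 of 8 members, as did 1772 probes higher and 299 lower of 19415, a share close to that of the members.

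The comparison of FLT-Surgery with G-Surgery asks the same of the defect. Here 6 of the 7 members tested had a lower mean in FLT-Surgery, and Bgn a higher one. None passed the cut-off, against 3.14% of the 16548 probes tested, and 2 had a p up to 0.05 before adjustment, against 16.4% of all probes. These were Lum, lower by a log2 difference of -4.38 (SE 1.62, limma adjusted p = 0.284), and Scx at -1.71 (SE 0.60, adjusted p = 0.28). Postn differed by -3.36 (SE 1.63), Dcn by -1.55 (SE 0.77), Ogn by -1.15 (SE 0.73), Fmod by -0.13 (SE 0.40) and Bgn by 0.59 (SE 0.45). Lum, Ogn, Postn and Scx were well above background on only 1 FLT-Surgery array, so the sizes of their differences are uncertain. The median over the 7 members was -1.55 and that over all probes -0.20.

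These counts depended on FLT-Surgery 1. Without it, 5 members passed the cut-off by limma, each lower in FLT-Surgery, and the share over all probes rose as well, to 12.7%. Of these, Dcn was the 1 measured above background on both remaining FLT-Surgery arrays, with a difference of -2.54 (SE 0.43, adjusted p = 0.0249). Lum, Ogn, Postn and Scx were not well above background on either, so no size is given for them. With the slide as a block, Lum (-4.70, SE 1.04), Postn (-3.71, SE 0.85) and Scx (-1.84, SE 0.33) passed, with limma adjusted p between 0.0767 and 0.0968, beside 7.8% of all probes. These values also rest on FLT-Surgery 3 and 5, where none of them was well above background. They met the filter for testing through G-Surgery, so their sizes and calls are uncertain. Without FLT-Surgery 5 the difference of Lum was -2.53 and that of Dcn -0.79, and without FLT-Surgery 3 that of Postn was -2.08. After normexp and loess Lum was at -1.80, Postn at -0.97 and Scx at -0.15. Within the slide of FLT-Surgery 3 and 5 and G-Surgery 1, 4 and 5 the differences were -2.33 for Dcn and 0.00 for Bgn. Lum and Postn were lower there too, with no size given, since neither was well above background on FLT-Surgery 3 or 5. Between the single mice of the other slide the differences were -1.89 for Lum, -1.42 for Postn, -0.19 for Dcn and 1.91 for Bgn.

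**Figure D2:**
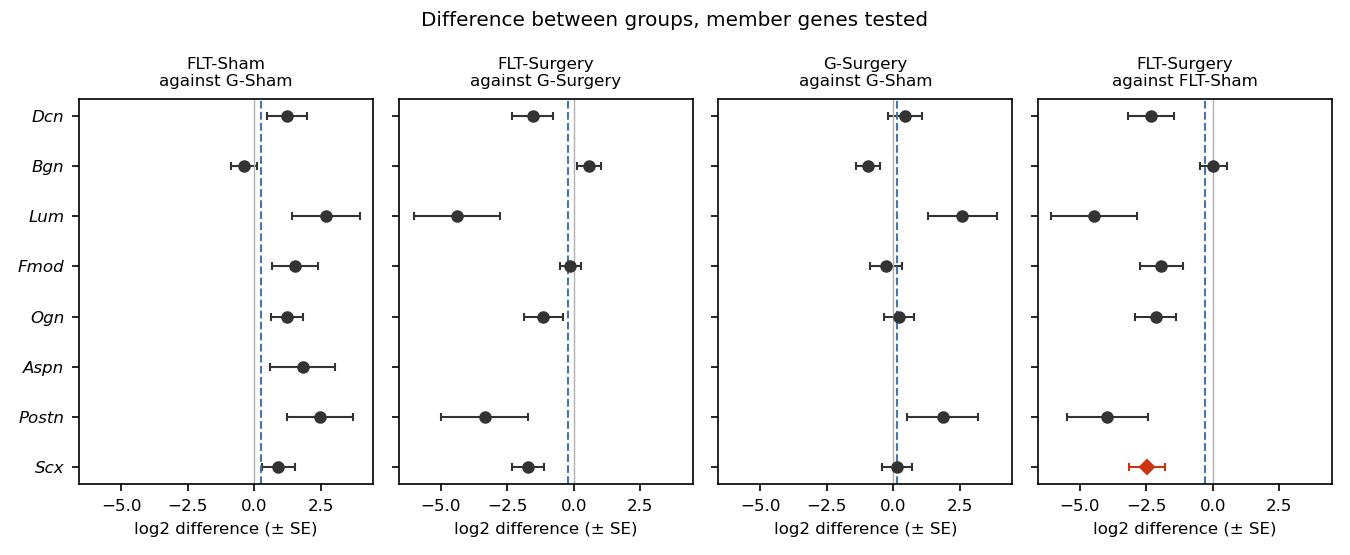
Log2 difference between group means ± SE (horizontal axis) for each member tested (vertical axis) in 4 comparisons, with the median of all probes tested as a dashed line. The diamond marks Scx in FLT-Surgery against FLT-Sham, the value past the cut-off. Bgn stays within 1 log2 unit of 0 in each panel.

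**Figure D3:**
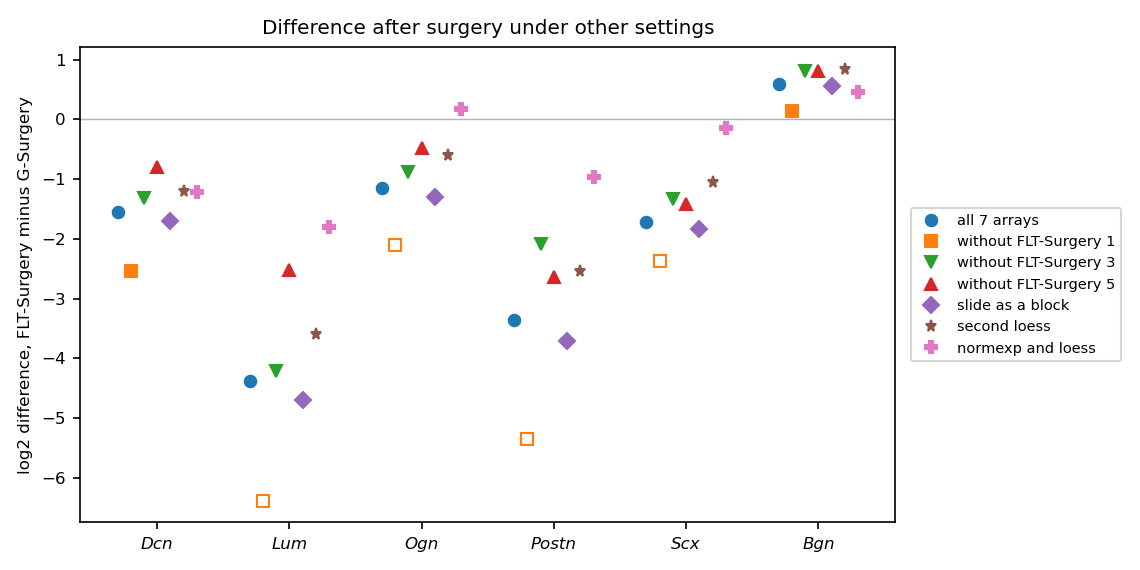
Log2 difference between FLT-Surgery and G-Surgery (vertical axis) for 6 members (horizontal axis) with all 7 arrays, without each FLT-Surgery mouse, with the slide as a block, and after other normalizations. Open points mark genes not well above background on any FLT-Surgery array used (Lum, Ogn, Postn and Scx without FLT-Surgery 1), so their distance from 0 is uncertain, and after normexp and loess Ogn (0.18) and Scx (-0.15) are close to 0.

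Surgery on the ground gave no call among the members. In G-Surgery against G-Sham, 0 of 7 passed the cut-off, against 2.59% of 17675 probes, and 0 had a limma p up to 0.05 before adjustment, against 10.9% of probes. Lum (2.60, SE 1.28) and Postn (1.85, SE 1.35) had the largest differences upward and Bgn the largest downward (-0.94, SE 0.44), with a median of 0.22 over the members and 0.14 over all probes. Dcn, Ogn, Fmod and Scx differed by 0.45, 0.22, -0.28 and 0.14, each less than its standard error.

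In flight, 6 of 7 members had a lower mean in FLT-Surgery than in FLT-Sham, and 1 of 7, Scx, passed the cut-off, against 6.65% of 19136 probes, or 6.22% for probes that were lower. Scx fell by 2.48 on the log2 scale (SE 0.69, limma adjusted p = 0.145), but it was well above background on 1 of the 3 FLT-Surgery arrays, so the size is uncertain. The 6 lower members each had a p up to 0.05 before adjustment, against 24.3% of all probes, with differences of -4.47 for Lum (SE 1.61), -3.97 for Postn (SE 1.51), -2.33 for Dcn (SE 0.88), -2.16 for Ogn (SE 0.77) and -1.93 for Fmod (SE 0.82). Lum, Postn and Ogn, like Scx, were well above background on 1 of the 3 FLT-Surgery arrays and met the filter for testing through FLT-Sham. Their sizes are therefore uncertain as well. Bgn differed by 0.02 (SE 0.51). Scx no longer passed with the slide as a block (-2.30, SE 0.80, limma adjusted p = 0.335), after a second loess (-1.66) or after normexp and loess (-0.65), nor without FLT-Sham 4, 6 or 9 or FLT-Surgery 3 or 5, each left out in turn. Without FLT-Surgery 1, Dcn (-3.32), Lum, Ogn, Postn and Scx passed, the last 4 against arrays not well above background, beside 13% of all probes. Without FLT-Sham 8, Fmod (-2.71) and Scx (-2.92) passed, 2 of 7 members beside 26.2% of all probes.

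The difference of the spaceflight differences, surgery minus sham, was tested over all 15 arrays. Lum passed the cut-off with -7.07 on the log2 scale (SE 2.21, limma adjusted p = 0.176), as 1 of 8 members, against 5.33% of 21777 probes, or 4.97% for negative values. Its spaceflight difference was 2.69 in the sham mice and -4.38 in the surgery mice. A total of 5 members had a p up to 0.05 before adjustment, against 19.5% of probes, the others being Postn (-5.82, SE 2.18), Dcn (-2.78, SE 1.14), Scx (-2.62, SE 0.93) and Ogn (-2.38, SE 0.998), and Bgn was at 0.96 (SE 0.69). For Lum, Postn, Scx and Ogn the sizes are uncertain, since G-Sham 1 and FLT-Surgery 3 and 5 were not well above background. The call of Lum was lost after a second loess (-5.54) and after normexp and loess (-3.20), and without any 1 of G-Sham 1 or 3, FLT-Sham 4 or 6, G-Surgery 3 or 4 and FLT-Surgery 3 or 5. Without FLT-Surgery 1, Dcn (-3.77), Lum, Ogn, Postn and Scx passed, beside 10.3% of all probes, with the last 4 not well above background in either remaining FLT-Surgery mouse. Lum and Postn passed without G-Sham 4 (4.23% of all probes), and Lum and Scx without G-Sham 5 (6.54%) or FLT-Sham 8 (17.5%).

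The log2 ratio of Dcn minus that of Bgn on the same array does not depend on a factor common to all probes of that array, and both genes were above background in all mice. This measure was chosen after the values were seen and is given as a description, with no test. It was -4.62, -3.83, -3.39 and -3.30 in G-Sham 1, 3, 4 and 5, and -1.96, -0.81, -3.13 and -2.79 in FLT-Sham 4, 6, 8 and 9. It was -2.51, -1.33, -3.03 and -2.68 in G-Surgery 1, 3, 4 and 5, and -3.43, -4.55 and -5.59 in FLT-Surgery 1, 3 and 5. All FLT-Sham mice were thus above all G-Sham mice and all FLT-Surgery mice below all G-Surgery mice, FLT-Surgery 1 included. For FLT-Surgery 1 this rests on Bgn, at 4.92 and above the G-Surgery range of 3.02 to 4.16. Its Dcn alone, at 1.50, was above the G-Surgery mean of 1.07. G-Surgery lay above G-Sham, and FLT-Surgery below FLT-Sham, also without overlap, as did 10.8% and 9.93% of the probes described next. The spaceflight difference of this measure was 1.61 between the sham groups and -2.13 between the surgery groups. Of 8023 probes above background in both channels on all arrays, 3.71% were above without overlap in FLT-Sham when set against Bgn, 14.2% were below without overlap in FLT-Surgery, and 1.53% did both. The groups also did not overlap in any of the 4 comparisons after a second loess, after normexp and loess, or in the Cy5 channel alone, where the 2 spaceflight differences ran from 1.59 to 1.77 and from -2.07 to -1.67. These comparisons share groups, and a ratio within an array does not say which of the genes moved.

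The other members were set against Bgn in the same way. Lum minus Bgn was lower without overlap in FLT-Surgery (-7.21 to -0.83) than in G-Surgery (0.21 to 2.97), and Scx minus Bgn was too (-7.11 to -6.38 against -5.37 to -3.21). Ogn minus Bgn was higher without overlap in FLT-Sham (-5.74 to -4.10) than in G-Sham (-7.42 to -6.20) and overlapped between the surgery groups. In the surgery comparison 14.2% of the probes above background on all arrays were likewise lower against Bgn, and in the sham comparison 3.71% higher. After normexp and loess Scx minus Bgn overlapped between the surgery groups (difference -0.61) and Ogn minus Bgn between the sham groups (0.74), while Lum minus Bgn still did not overlap between the surgery groups (-2.26). For Lum, Ogn and Scx the lowest values again rest on signals not well above background.

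**Figure D4:**
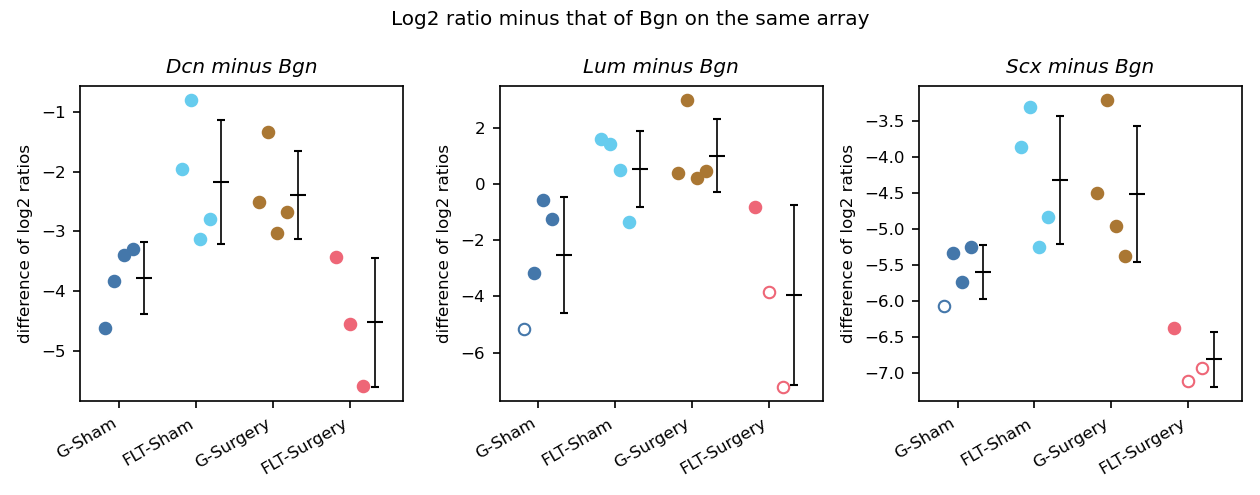
Log2 ratio of Dcn, Lum and Scx minus that of Bgn on the same array (vertical axis), 1 point per mouse in 4 groups, open where the gene was not well above background, with mean ± SD. For Dcn the 4 FLT-Sham mice lie above the 4 G-Sham mice, and the 3 FLT-Surgery mice below the 4 G-Surgery mice.

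Across the 15 arrays Dcn, Lum, Ogn, Postn and Scx varied together, and Bgn, Fmod, Aspn and Tnmd less closely with them. Pearson's r between pairs of Dcn, Lum, Ogn, Postn and Scx ran from 0.83 to 0.98 (10 pairs), with Dcn and Ogn at 0.98, and from 0.79 to 0.97 after each group's mean had been taken out. Lum, Ogn, Postn and Scx were all not well above background on G-Sham 1 and FLT-Surgery 3 and 5. The part of these shared low points in r was not tested. With Fmod included, the 15 pairs had r from 0.51 to 0.98, and from 0.48 to 0.97 within groups. Aspn had r = 0.56 with Lum and 0.72 with Dcn and with Scx. The 6 pairs of Bgn with these genes and Fmod had r between 0.21 and 0.41, and between 0.53 and 0.69 within groups. All genes on an array share that array's Cy5 signal and dye scaling, which differed between arrays, so these values are descriptions. The mean of the standardised log2 ratios of the 6 members above background on at least 12 arrays was lowest in FLT-Surgery 5 (-1.72), G-Sham 1 (-1.40) and FLT-Surgery 3 (-1.36) and highest in FLT-Sham 4 (1.05). Over the arrays this profile had r = -0.69 with the Cy5 scaling factor and 0.55 with the number of probes above background, and their part in the differences was not tested. The 5 other genes closest to it, of 6420 candidates, were Plcd1, Atp6v0b, Eml1, Son (each r = 0.97) and Emid1 (r = 0.96), but 16.5% of candidates had r above 0.8, so likeness to this profile was common.

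**Figure D5:**
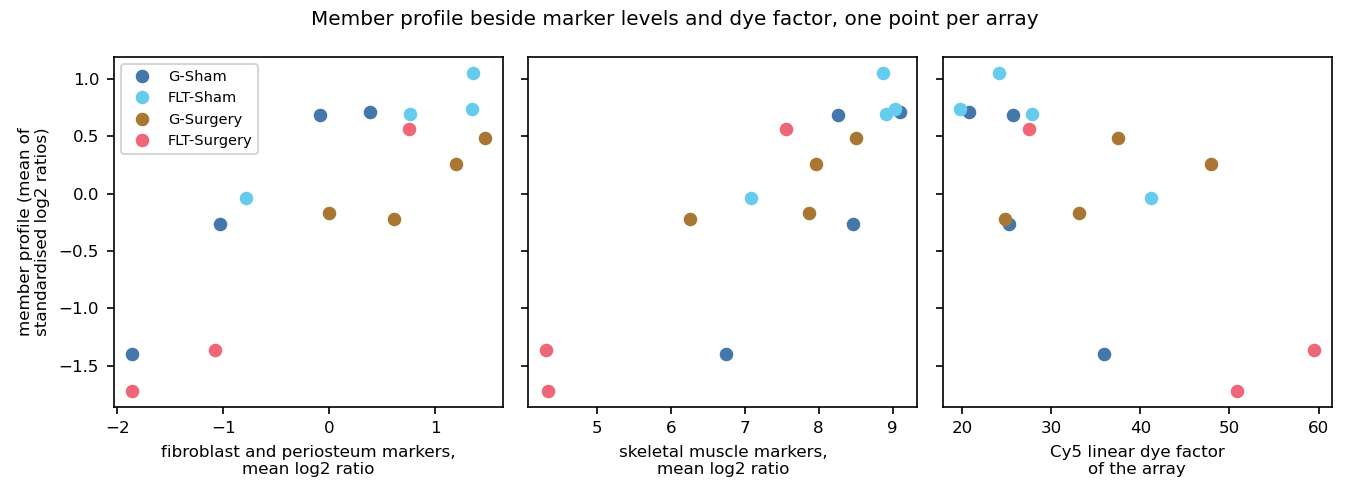
Mean of the standardised log2 ratios of Dcn, Bgn, Lum, Ogn, Postn and Scx (vertical axis) against the mean log2 ratio of fibroblast and periosteum markers, of skeletal muscle markers, and the Cy5 linear dye factor of the array (horizontal axes), 1 point per mouse. FLT-Surgery 3 and 5 lie at the lowest muscle marker levels (4.31 and 4.34) and the highest dye factors (59.5 and 50.9).

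Markers of several other cell types moved with the members, and those of others did not. The mean log2 ratio of the fibroblast and periosteum markers was -1.07 and -1.86 in FLT-Surgery 3 and 5 against 0.76 in FLT-Surgery 1 and 0.00 to 1.47 in G-Surgery. That of the skeletal muscle markers was 4.31 and 4.34 against 7.56 and 6.26 to 8.51, that of the neutrophil markers 3.05 and 3.51 against 5.59 and 4.73 to 6.38, and that of the adipocyte markers -0.07 and -0.95 against 1.84 and 0.80 to 1.30. The endothelial markers, at 2.07 and 2.78, lay on either side of FLT-Surgery 1 (2.17) and within the range of G-Surgery (2.02 to 3.78), and the B cell markers, at -2.38 and -1.93, were higher than in FLT-Surgery 1 (-2.74). The chondrocyte markers were at 0.25 to 0.83 in all 3 FLT-Surgery mice and 2.43 to 5.46 in G-Surgery. In the sham mice the adipocyte markers ran from -0.24 to 3.96 in G-Sham and from 3.12 to 5.64 in FLT-Sham, and the erythroid markers from 4.36 to 6.67 and from 5.91 to 7.95. Among 8 chondrocyte markers Sox9, Col10a1, Matn1, Matn3 and Hapln1 were above background on no array, and Dpt of the fibroblast list was on none either. Past the cut-off in the sham comparison were 2 of 4 adipocyte markers and 1 of 6 osteoblast and osteocyte markers, all higher in FLT-Sham, and none of the fibroblast, muscle, erythroid, neutrophil, endothelial, B cell or chondrocyte markers tested. In FLT-Surgery against G-Surgery 1 of 11 muscle markers (Myh2, -5.48) and 1 of 2 chondrocyte markers were lower, the latter being Col2a1, the cartilage collagen (-5.92, SE 1.53), which was higher in G-Surgery than in G-Sham (6.03, SE 1.18). In that ground comparison 2 of 6 fibroblast markers (Pi16 and Mfap5) and Ibsp were also higher and 1 of 5 erythroid markers was lower. In FLT-Surgery against FLT-Sham the lower markers were 4 of 5 erythroid, 3 of 7 neutrophil, 3 of 4 adipocyte, 3 of 12 muscle, 2 of 5 osteoblast and osteocyte and 1 of 10 fibroblast markers. Over all probes, 2% passed the cut-off in the sham comparison and 3.14% in FLT-Surgery against G-Surgery. The shares were 2.59% in G-Surgery against G-Sham and 6.65% in FLT-Surgery against FLT-Sham. The part of these cell types in the member differences was not tested.

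Of 11 other small leucine-rich proteoglycans and relatives, 6 had enough signal to be tested. Podn (podocan) rose by 3.41 on the log2 scale in G-Surgery against G-Sham (SE 0.47, limma adjusted p = 0.124), the 1 call among 6. Podnl1 fell by 1.13 in FLT-Surgery against G-Surgery (SE 0.25, adjusted p = 0.25), and Chad (chondroadherin, which binds collagen and integrins) fell by 2.36 in FLT-Surgery against FLT-Sham (SE 0.51, adjusted p = 0.135), again 1 of 6 each. Chad also passed in the interaction (-2.38). Over all probes the shares past the cut-off were 2.59% in G-Surgery against G-Sham and 3.14% in FLT-Surgery against G-Surgery. They were 6.65% in FLT-Surgery against FLT-Sham and 5.33% in the interaction.

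The collagens that these proteoglycans bind, with the enzymes that process them, gave 5 calls of 19 in G-Surgery against G-Sham, all higher. The 3 with the smallest limma p were the fibril-associated collagen Col14a1 (4.09, SE 0.70, adjusted p = 0.176), the lysyl hydroxylase Plod2 (3.27, SE 0.64, adjusted p = 0.201) and the fibril-nucleating collagen Col5a2 (3.65, SE 0.73, adjusted p = 0.206). In FLT-Surgery against G-Surgery 3 of 19 were lower past the cut-off by limma: the prolyl hydroxylase P4ha1 (-1.23, SE 0.32), the collagen chaperone Serpinh1 (-1.83, SE 0.48) and Plod2 (-2.05, SE 0.58). The list's median was 0.95 in the first comparison and -1.21 in the second, against 0.14 and -0.20 over all probes. In the sham comparison 0 of 19 passed (median 0.50), and in FLT-Surgery against FLT-Sham 0 of 19 (median -0.58), with 6 of 19 lower past the cut-off in the interaction, which shares its arrays with the other comparisons. Over all probes 2.59% passed in G-Surgery against G-Sham, 3.14% in FLT-Surgery against G-Surgery and 5.33% in the interaction.

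Among 16 tendon and ligament genes, Prg4 (lubricin, the boundary lubricant of joints and tendons) fell by 4.59 in FLT-Surgery against G-Surgery (SE 1.05, limma adjusted p = 0.258), as 1 of 10 tested, with all 10 lower, and it passed in the interaction (-7.14). All 10 tested were higher in G-Surgery than in G-Sham and 0 passed. In the sham comparison 0 of 12 passed, with 11 higher and a median of 1.55, and in FLT-Surgery against FLT-Sham 0 of 12, with 9 lower. Of all probes tested, 37.8% were higher in FLT-Surgery than in G-Surgery and 59.9% in G-Surgery than in G-Sham. The share higher was 61.1% in the sham comparison and 41.4% in FLT-Surgery against FLT-Sham. Of 9 TGF-beta ligands, receptors and latent binding proteins, Ltbp1, which tethers latent TGF-beta to the matrix, fell by 2.15 in FLT-Surgery against G-Surgery (SE 0.56, limma adjusted p = 0.28, 1 of 7 tested). The co-receptor Tgfbr3 fell by 2.91 in FLT-Surgery against FLT-Sham (SE 0.78, adjusted p = 0.144, 1 of 9), and the receptor Tgfbr1 passed in the interaction (-3.86, SE 1.03). None of these 9 passed in the sham comparison or in G-Surgery against G-Sham. Over all probes 3.14% passed in FLT-Surgery against G-Surgery, 6.65% in FLT-Surgery against FLT-Sham and 5.33% in the interaction.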

How the data were processed

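Femoral RNA of 15 mice was hybridised to 2-colour Agilent arrays, and p-values measure the spread between mice. The authors deposited Feature Extraction output (12.0 per the labels, 12.0.3.1 per the file headers): processed, median and background intensity values in both channels, and the log10 ratio of Cy5 to Cy3 after linear and lowess dye normalization. The array design was annotated on mm9, and a deposited series table holds the same log10 values. From these, log2 ratios were computed, outlier spots set to missing and spots of a probe averaged. A probe was tested if its Cy5 signal exceeded background on 3 or more arrays of a comparison. Tests used limma (version 3.58.1, R 4.3.3) fitted to both groups of a comparison, or to all arrays for the interaction. The cut-off was that of the methods (change of 2-fold or more, p not above 0.01 before adjustment), and Benjamini-Hochberg adjustment ran over all probes tested. Scripts were tested on simulated data.

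Groups and replicate numbers came from the labels. Members and gene lists were chosen with earlier results of these data known. All matched members are named; of each list, at most the 3 genes with the smallest p past the cut-off. Likeness was Pearson's r to the mean of the standardised log2 ratios of members above background on at least 12 arrays. Alternatives were a second loess, normexp (offset 50) with loess, median centring, Cy5 alone with quantile normalization, no or a stricter filter on dim probes, all 15 arrays in 1 fit, slide and replicate blocks, and leaving out each array. Normexp used median signals, as mean signals were not used here. The number of arrays limits the precision. Gene symbols came from accessions through RefSeq tables, for 28026 of 55681 probes.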

Additional observations from a re-analysis of the deposited data

Results flagged for a closer look

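Fmod in FLT-Sham had 1 mouse far from the others: FLT-Sham 8 at a log2 ratio of -0.42, with the gap to its nearest neighbour at 0.858 of the group's range. Of 36 groups of 4 values examined in this way it was the 1 that stood out, and chance picks out about 1 group in 20. That value was not well above background, and FLT-Sham 8 also had the fewest probes above background of its group (26.6%).

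The spaceflight difference of Lum differed between the surgery and the sham mice, by -7.07 on the log2 scale in the limma interaction (adjusted p = 0.176), past the cut-off as were 5.33% of all probes. The call was lost after a second loess, after normexp and loess and without any 1 of 8 arrays, and its size rests on 3 arrays on which Lum was not well above background. For Dcn minus Bgn every FLT-Sham mouse was above every G-Sham mouse (a difference of 1.61) and every FLT-Surgery mouse below every G-Surgery mouse (-2.13). In FLT-Surgery 1 this rested on a high Bgn (4.92), since Dcn itself was at 1.50 there. The difference between these differences was not tested.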

How the results depend on the processing

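The number of members past the cut-off in FLT-Sham against G-Sham (0) and in G-Surgery against G-Sham (0) was the same under each alternative that keeps all arrays. Leaving out each array in turn gave 0 to 1 and 0 to 0, respectively, 0 to 5 in FLT-Surgery against G-Surgery, 0 to 5 in FLT-Surgery against FLT-Sham and 0 to 5 in the interaction. With the slide as a block the count was 3 in FLT-Surgery against G-Surgery, 0 in FLT-Surgery against FLT-Sham and 2 in the interaction. Over all probes 7.8%, 2.87% and 3.69% passed with that block. In the last 2 comparisons the member count was 0 after a second loess, after normexp and loess, without a filter and with the stricter filter, which leaves Dcn and Bgn only. Cy5 alone gave 2 members in the interaction, beside 5.64% of all probes. Of 440 values of single members under an alternative, 396 kept their direction and their side of the cut-off and 21 changed sign. In FLT-Surgery against G-Surgery, Fmod became 0.80 after a second loess, 0.0066 after normexp, 0.0861 with Cy5 alone and 0.0333 with the replicate block, and -0.43 to 0.0445 over left-out arrays; Ogn became 0.18 after normexp. In G-Surgery against G-Sham, Ogn became -0.0029 and -0.0265 and Scx -0.0701 and -0.0857 after a second loess and after normexp, and over left-out arrays Dcn ran from -0.16 to 0.84, Fmod from -0.85 to 0.10, Ogn from -0.36 to 0.54 and Scx from -0.34 to 0.48. Bgn in FLT-Surgery against FLT-Sham became -0.24 after normexp and ran from -0.42 to 0.25. The causes were not tested. The replicate block was possible in 2 comparisons and gave 0 member calls in each, as without it; same-numbered mice correlated between -0.36 and 0.35, so they share only a number. It moved the calls over all probes from 519 to 215 in FLT-Surgery against G-Surgery and from 458 to 389 in G-Surgery against G-Sham. A second loess moved the median of all probes from -0.20 to 0.30 in FLT-Surgery against G-Surgery, where 173 probes were higher and 346 lower past the cut-off before it and 1164 and 60 after it. The same split went from 353 and 41 to 159 and 86 in FLT-Sham against G-Sham, from 368 and 90 to 232 and 179 in G-Surgery against G-Sham, from 81 and 1191 to 623 and 569 in FLT-Surgery against FLT-Sham, and from 78 and 1082 to 679 and 228 in the interaction. Scan run equals slide and was not run separately. Aspn, Tnmd and the dim arrays of Lum, Ogn, Postn and Scx are limited by signal over background.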
